A study of Mus musculus with 8 samples.

Results

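The genes described here encode acute phase plasma proteins other than the serum amyloids and fibrinogens: Lcn2, Orm1, Orm2, Hp, Hpx, Itih3, Itih4, Apcs, Crp and Cp. They were chosen by name, with earlier results of these data known. All 10 names were found once each among the 24545 rows of a table of whole-liver RNA sequencing values. Orm1 and Orm2 carried identical values in all 8 libraries, together with Orm3, a neighbouring gene of the cluster that was not on the list. The 3 cannot be told apart in these data, so the 10 names gave 9 separate rows of values, and the shared row is called the Orm row below. Values are in FPKM, a measure of sequenced fragments per unit of transcript length and of library size, and all 9 rows were well above the filter of 1 FPKM in at least 2 libraries.

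The libraries came from male C57Bl/6J mice in 4 groups of 2. Wild-type and ApoE-Cyp7a1 transgenic animals were each left untreated or given LPS. This is lipopolysaccharide, the endotoxin of Gram-negative bacteria, and it was injected daily at 1.5 mg/kg for 7 days. The transgene is described as liver specific and carries Cyp7a1, whose enzyme sets the pace at which bile acids are made from cholesterol. No vehicle injection is named for the untreated mice. The sources used here do not give the age of the mice, the species of the transgene or the time from the last injection to harvest. Both libraries of a group are described as biological replicates, so every group mean below is over n = 2.

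In the acute phase response, hepatocytes change the set of plasma proteins they secrete. Interleukin-6 acting through STAT3, and interleukin-1 and TNF acting through NF-kB and C/EBP factors, raise the transcription of these genes. The proteins have different tasks: Lcn2 sequesters bacterial siderophores, haptoglobin (Hp) and hemopexin (Hpx) bind free haemoglobin and haem, ceruloplasmin (Cp) carries copper and oxidises iron, Apcs and Crp are pentraxins that bind microbial and cell debris surfaces, and Itih3 and Itih4 belong to the inter-alpha-trypsin inhibitor heavy chains. In mice Apcs is the strongly inducible pentraxin, whereas Crp is the strongly inducible one in humans.

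Summed FPKM was 500765 to 580051 in the 4 untreated libraries and 406668 to 469644 in the 4 LPS libraries, and the sources used here give no number of fragments per library. The Cyp7a1 row held 19.9 to 49.1 FPKM in wild-type and 64.7 to 78.5 FPKM in transgenic libraries. Of 10 hepatocyte marker names 9 had a value, summing to 20846 to 31916 FPKM untreated and 16228 to 19453 FPKM with LPS; Alb was listed at 0 in every library. Kupffer cell and macrophage markers (9 of 10 names with a value) summed to 121 to 215 FPKM untreated and 1421 to 1655 FPKM with LPS. Neutrophil markers (10 of 10) summed to 4.22 to 10.5 FPKM untreated and 195 to 382 FPKM with LPS. Pancreas exocrine markers (8 of 8) were uneven: 4827 and 1000 FPKM in untreated transgenic replicates 1 and 2, 1296 FPKM in untreated wild-type replicate 1, and 24.95 to 192 FPKM in the other 5 libraries. Adipose markers (4 of 4) summed to 35.5 FPKM in untreated wild-type replicate 1 and 0.377 to 16.1 FPKM in the other 7 libraries. B and plasma cell markers (5 of 6) summed to 75.7 to 120 FPKM untreated and 117 to 134 FPKM with LPS. Most of these sums was Xbp1, with means of 89.7 and 74.8 FPKM in wild type without and with LPS and 114 and 72.3 FPKM in transgenic liver. In each genotype 4 of the 5 tested features rose, among them Igj from a mean of 0.764 to 30.2 FPKM in wild type. Xbp1 did not pass in wild type and fell in transgenic mice. The part of these shifts in the results below was not tested, except where a value is given.

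The promoters of the genes whose levels the results turn on are shown first, because the transcription factors of the acute phase response bind known letters. RefSeq entries on GRCm38.p6, the same assembly as the authors' mm10, matched 8 of the 10 names, with 2 windows for Cp. Each sequence is the 250 bases upstream of the annotated start, printed 5′ to 3′ on the gene's own strand. Capitals mark matches, on either strand, to 1 of 4 motifs: TTCNNNGAA (STAT type), CTGGGAA (the acute phase element of STAT3), TTGCNNAA (C/EBP type) and an NF-kB type of 3 Gs, any 5 bases and 2 Cs. Overlapping matches are joined into 1 capital run. Lcn2, Orm2 and Hpx are shown because their rows rose in both genotypes, Itih4 because it rose over both genotypes together, and Apcs and Crp because the levels of these pentraxins moved apart.
Lcn2, chr2:32387740-32387989, minus strand: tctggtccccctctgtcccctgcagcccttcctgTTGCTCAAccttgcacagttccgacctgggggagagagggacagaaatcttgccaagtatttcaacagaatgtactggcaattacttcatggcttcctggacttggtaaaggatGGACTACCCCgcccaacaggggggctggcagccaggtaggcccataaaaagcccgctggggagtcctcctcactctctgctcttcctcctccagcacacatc
Orm2, chr4:63362199-63362448, plus strand: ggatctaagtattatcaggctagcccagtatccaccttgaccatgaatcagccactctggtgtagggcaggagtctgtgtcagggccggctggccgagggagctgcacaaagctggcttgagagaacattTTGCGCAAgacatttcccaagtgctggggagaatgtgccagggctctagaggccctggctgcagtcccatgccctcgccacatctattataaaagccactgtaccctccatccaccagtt
Hpx, chr7:105600117-105600366, minus strand: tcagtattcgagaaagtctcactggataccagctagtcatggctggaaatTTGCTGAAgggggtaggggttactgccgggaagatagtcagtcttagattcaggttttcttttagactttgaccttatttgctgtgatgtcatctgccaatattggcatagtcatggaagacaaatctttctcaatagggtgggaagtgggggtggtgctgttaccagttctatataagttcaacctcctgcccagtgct
Itih4, chr14:30886226-30886475, plus strand: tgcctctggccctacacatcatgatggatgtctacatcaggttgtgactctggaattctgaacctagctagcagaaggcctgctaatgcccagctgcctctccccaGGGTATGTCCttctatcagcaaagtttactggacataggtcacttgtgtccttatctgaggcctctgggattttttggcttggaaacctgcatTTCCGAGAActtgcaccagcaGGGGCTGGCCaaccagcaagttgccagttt
Apcs, chr1:172895055-172895304, minus strand: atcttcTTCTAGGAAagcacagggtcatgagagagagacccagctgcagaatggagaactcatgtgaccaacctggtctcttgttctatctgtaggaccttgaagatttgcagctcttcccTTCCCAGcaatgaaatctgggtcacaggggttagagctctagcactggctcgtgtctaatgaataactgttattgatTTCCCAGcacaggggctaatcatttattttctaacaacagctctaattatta
Crp, chr1:172697806-172698055, plus strand: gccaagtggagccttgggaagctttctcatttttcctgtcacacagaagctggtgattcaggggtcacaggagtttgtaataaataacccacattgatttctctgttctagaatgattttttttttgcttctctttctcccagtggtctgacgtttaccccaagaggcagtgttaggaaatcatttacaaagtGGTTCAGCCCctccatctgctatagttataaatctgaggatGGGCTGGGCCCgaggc

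The C/EBP-type letters were found upstream of Lcn2 (216 to 209 bases before the start), Orm2 (120 to 113) and Hpx (200 to 193), and in 1 of the Cp windows. They occur in 9.57% of 32817 promoters of the same length. The STAT-type letters were found upstream of Itih4 (51 to 43 bases before the start) and Apcs (244 to 236), and occur in 7.01% of all promoters. Apcs also held the acute phase element at 2 places, on the strand opposite to the one printed, a motif present in 9.10% of promoters. The NF-kB-type letters are common, in 45.8% of promoters, and were found upstream of Lcn2, Itih4 and Crp and in 1 Cp window. No match was found in the Itih3 window or the other Cp window. The Itih3 window (chromosome 14, 30923588 to 30923837) overlaps the gene span given below. So do both Cp windows (chromosome 3, 19956804 to 19957053 and 19956999 to 19957248). These windows, which are not printed, therefore do not hold only bases before the gene. A match describes letters only, and binding was not measured in these libraries.

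LPS raised 3 of the 9 rows in wild-type liver and the same 3 in transgenic liver: Lcn2, the Orm row and Hpx. Lcn2 rose from a mean of 51.0 to 662 FPKM in wild type and from 40.9 to 751 FPKM in transgenic liver, and Hpx became the highest of the 9 rows in every LPS library. Crp went the other way and fell in wild-type mice. Averaged over both genotypes, Itih4, Itih3 and Apcs also rose, so that 6 rows were higher and 1 lower, while Hp and Cp did not pass. With quantile normalization 8 rows, Hp and Cp included, were called higher in that average and Crp was not called, and with libraries scaled to an equal sum 7 were higher and Crp again was not called. The threshold was an adjusted p under 0.05 (Benjamini-Hochberg) in limma, fitted to log2(FPKM + 1) over 11463 features. Changes below are on that log2 scale with their SE.

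Over all features, 21.6% passed in wild type (16.2% higher and 5.41% lower), beside 3 higher and 1 lower of the 9 rows. In transgenic liver 26.5% of features passed (16% higher and 10.5% lower), beside 3 higher and 0 lower of the 9 rows, where limma gave 4 rows an unadjusted p under 0.05. Averaged over genotypes 36.4% passed (20.6% higher and 15.8% lower), beside 6 higher and 1 lower. The median change of the 9 rows was 1.00 in wild type, 0.90 in transgenic and 0.95 averaged over genotypes. Medians over all features were -0.05, -0.04 and -0.06. The rows were chosen with earlier results of these data known, so these comparisons are a description and no test of the set. The shares of all features that passed depended on single libraries. A fit without 1 library leaves 1 library in its group and estimates the spread from fewer libraries. A call can therefore be lost there at a nearly unchanged estimate. Of the 11463 features, 2481 passed in wild type, beside 1244 and 1376 without LPS wild-type replicate 1 or 2 and 3438 without untreated wild-type replicate 1. In transgenic mice 3034 passed, beside 1497 and 1238 without untreated transgenic replicate 1 or 2 and 1603 without LPS transgenic replicate 1. In the average 4177 passed, beside 2703 without LPS wild-type replicate 1, 2753 without LPS wild-type replicate 2 and 2847 without untreated transgenic replicate 2. In bulk liver a change in the number of cells of a type and a change in RNA per cell cannot be told apart.

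**Figure D1:**
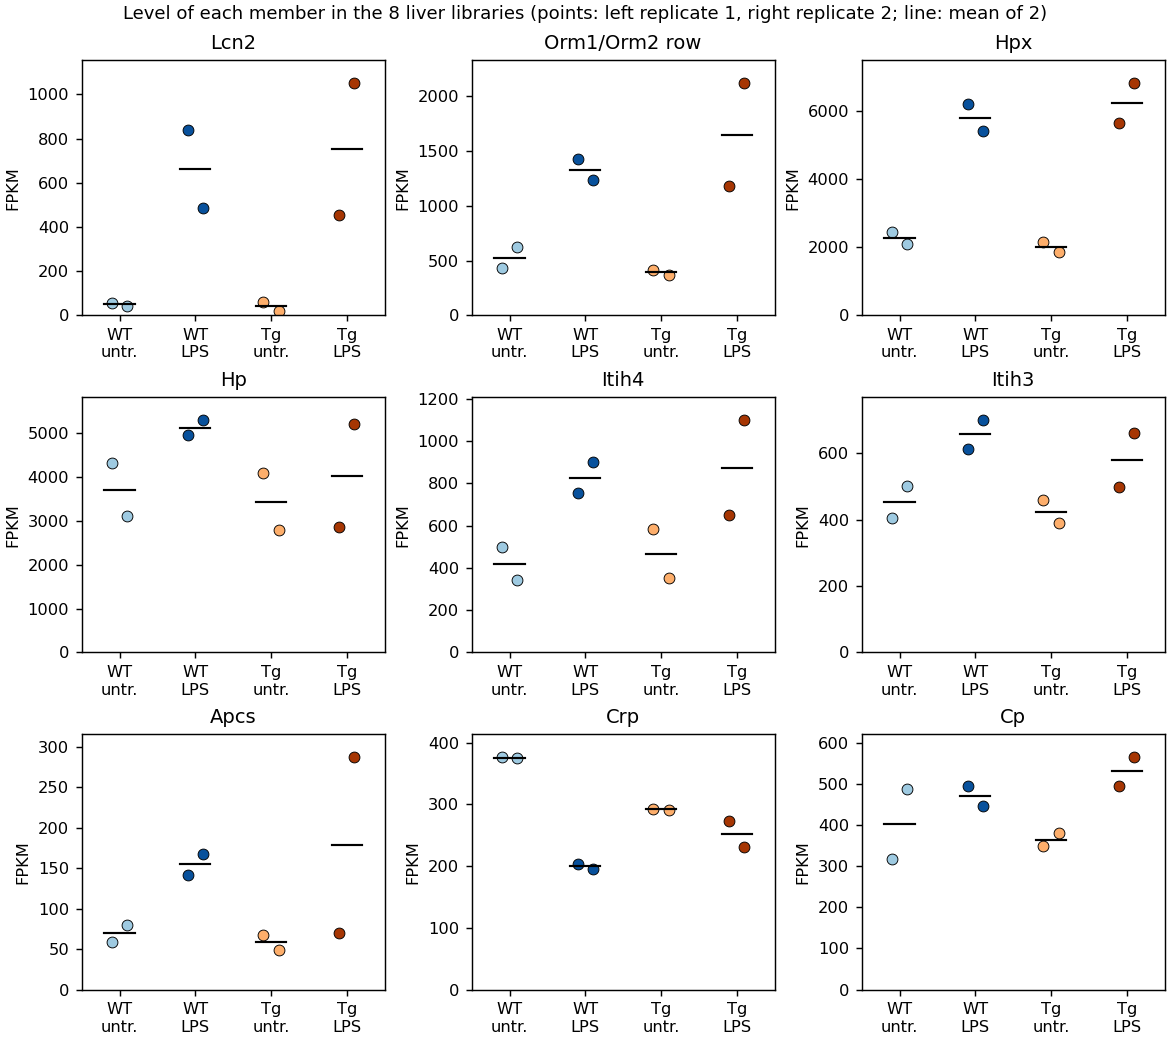
FPKM (vertical axis, linear, from 0) of each of the 9 rows in the 4 groups (horizontal axis); each point is 1 library and each line the mean of 2. Lcn2, the Orm row, Hpx and Itih4 are higher in all 4 LPS libraries than in all 4 untreated ones, and Crp is lower. Of all features 20.6% are higher in this way and 16.8% lower.

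Lcn2, the siderophore-binding lipocalin (chromosome 2, 32384637 to 32387739), had the largest change of the 9 rows. Its level was 57.3 and 44.7 FPKM in untreated wild type and 62.9 and 18.8 FPKM in transgenic liver without LPS. In treated mice it was 839 and 484 FPKM in wild type and 452 and 1050 FPKM in transgenic liver. Every LPS library lay above every untreated library, a pattern that the Orm row and Hpx shared and that was seen in 20.6% of all features. The genotypes overlapped within each treatment. The mean rose 13.0-fold in wild type and 18.4-fold in transgenic mice. On the log2 scale the changes were 3.63 (SE 0.59, adjusted p = 0.00400) and 4.28 (SE 0.59, adjusted p = 0.00217). Ranked by FPKM among all rows of its library, Lcn2 moved from places 978 to 2678 in untreated liver to places 56 to 112 with LPS. Both calls held in all 19 alternative fits, over which the wild-type change ranged from 3.23 to 4.03 and the transgenic change from 3.43 to 5.12.

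Neutrophils also store Lcn2, and the neutrophil marker sum rose with LPS in the same libraries. It was 382 and 229 FPKM in wild type and 300 and 195 FPKM in transgenic liver with LPS, beside 9.36, 10.5, 8.35 and 4.22 FPKM untreated. Within wild-type LPS the library with more Lcn2 (839 FPKM) had the higher neutrophil sum, and within transgenic LPS the library with more Lcn2 (1050 FPKM) had the lower one. All 8 tested neutrophil features rose in both genotypes, with median log2 changes of 3.14 and 2.64. Their part in the Lcn2 change was not tested.

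**Figure D2:**
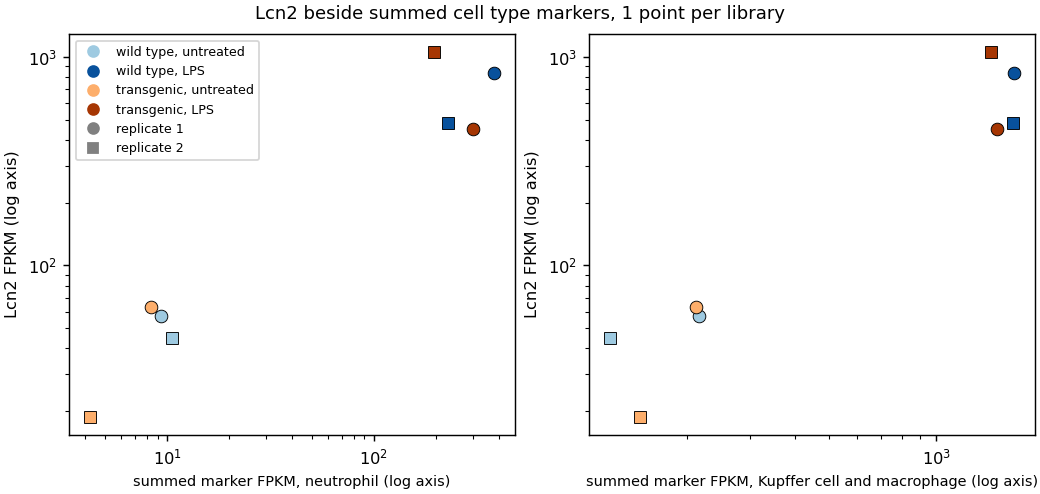
Lcn2 level in FPKM (vertical log axis) against the summed FPKM of neutrophil markers (left, horizontal log axis) and of Kupffer cell and macrophage markers (right, horizontal log axis); each point is 1 library, circles replicate 1 and squares replicate 2. The 4 LPS libraries are high on all 3 measures, and within them Lcn2 and the neutrophil sum have the same order in wild type (839 with 382 and 484 with 229 FPKM) and the opposite order in transgenic mice (452 with 300 and 1050 with 195 FPKM).

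The Orm row stands for the alpha-1-acid glycoproteins, abundant plasma lipocalins that bind drugs and lipids. Orm1 lies on chromosome 4 from 63344556 to 63348163 and Orm2 from 63362449 to 63365877, with Orm3 between them. The row held 432 and 621 FPKM in untreated wild type and 417 and 371 FPKM in transgenic liver without LPS. In treated mice it held 1422 and 1230 FPKM in wild type and 1176 and 2114 FPKM in transgenic liver. The lowest LPS library was nearly 2 times as high as the highest untreated one. The row rose 2.52-fold in wild type and 4.17-fold in transgenic mice, with changes of 1.35 (SE 0.31, adjusted p = 0.0184) and 2.00 (SE 0.31, adjusted p = 0.00350). The wild-type call was lost without untreated wild-type replicate 1 (1.09) and without either LPS wild-type library (1.25 and 1.45), while the transgenic call held in all 19 alternatives. It was lost in wild type also without both untreated libraries numbered 1 (1.09), which are 2 of the 3 libraries with the highest pancreas exocrine sums.

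Hpx, the plasma scavenger of free haem (chromosome 7, 105591611 to 105600116), was already abundant in untreated liver. It held 2439 and 2092 FPKM in untreated wild type and 2165 and 1856 FPKM in untreated transgenic liver, and its rank in these libraries was 24 to 33. With LPS it held 6185 and 5402 FPKM in wild type and 5640 and 6797 FPKM in transgenic liver, at rank 4 or 5. The groups were far apart, the lowest LPS library being more than 2 times as high as the highest untreated one. The change was 1.36 in wild type (SE 0.22, adjusted p = 0.00379) and 1.63 in transgenic mice (SE 0.22, adjusted p = 0.00187), or 2.56-fold and 3.09-fold. The wild-type call was lost in 1 of 19 alternatives, without LPS wild-type replicate 1, where the change was 1.26.

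Hp, the haemoglobin-binding partner in the same clearance system (chromosome 8, 109575128 to 109579172), did not pass in any LPS comparison. It held 4313 and 3113 FPKM in untreated wild type, 4081 and 2782 FPKM in untreated transgenic, 4959 and 5290 FPKM in LPS wild type and 2849 and 5214 FPKM in LPS transgenic liver. Both wild-type LPS libraries were above both untreated ones, and the transgenic groups overlapped. The share of all features separated in this way within 1 genotype was not counted, for Hp or for the rows below. The estimates were 0.48 in wild type (SE 0.35, adjusted p = 0.356) and 0.19 in transgenic mice (SE 0.35, adjusted p = 0.720). With quantile normalization the wild-type change was 1.01 and the averaged change 0.76, and both passed.

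The order of these 2 abundant transcripts exchanged. Hp was above Hpx in all 4 untreated libraries, and Hpx was above Hp in all 4 LPS libraries. The ratio of Hpx to Hp was 0.565 and 0.672 in untreated wild type, 0.530 and 0.667 in untreated transgenic, 1.25 and 1.02 in LPS wild type and 1.98 and 1.30 in LPS transgenic liver. Its mean log2 value was higher by 1.15 with LPS, with an SD of 0.17 over the 4 untreated and 0.40 over the 4 LPS libraries. The 3 ratios given here were chosen after their values were seen, so they are a description with no test. A ratio within a library does not depend on how libraries are scaled against each other, and it shows unequal change, not that Hp stayed level.

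**Figure D3:**
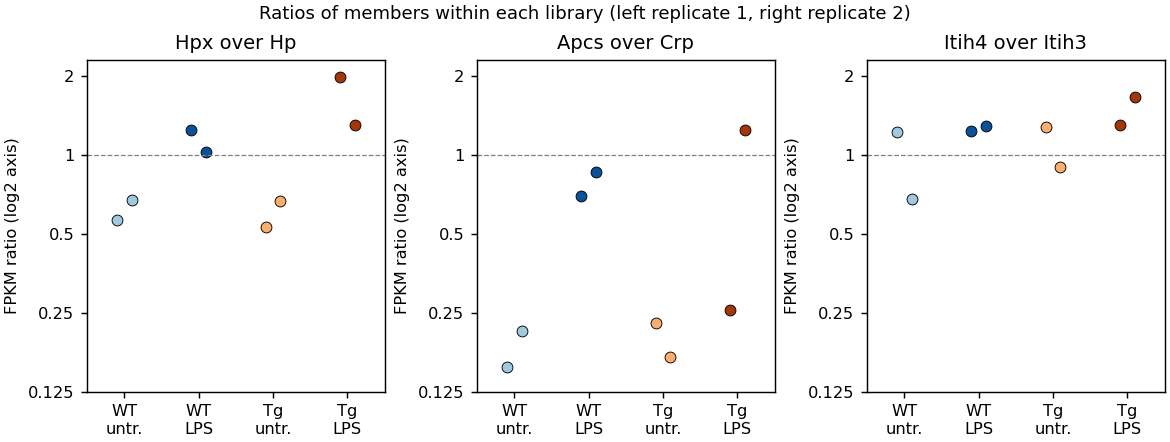
Ratio of 2 members' FPKM within each library (vertical log2 axis) by group (horizontal axis), 1 point per library with replicate 1 on the left; the dashed line marks equal levels. Hpx over Hp is 0.530 to 0.672 in the untreated and 1.02 to 1.98 in the LPS libraries, Apcs over Crp is higher with LPS as well, and Itih4 over Itih3 overlaps between treatments.

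The clearance genes around these scavengers moved in part. The list of receptors and handlers of haemoglobin, haem, siderophore and iron had 20 names and 18 tested features. Of these 9 rose in wild type, and 8 rose and 1 fell in transgenic mice. Over all features 16.2% rose and 5.41% fell in wild type, and 16% rose and 10.5% fell in transgenic mice. Hmox1, which degrades haem, rose by 3.13 and 3.37. Cd163, the macrophage receptor for haptoglobin and haemoglobin complexes, rose by 1.08 and 1.56, and Slc40a1, the iron exporter ferroportin, by 1.73 and 1.39. Lrp1, a receptor for hemopexin and haem complexes, did not pass, with estimates of 0.44 and -0.18. Slc22a17, a receptor proposed for Lcn2, was low, at 0.616 FPKM in untreated and 2.29 FPKM in LPS wild-type liver, and rose by 1.05 and 0.70, of which the second was not called with quantile normalization (0.37). Kupffer cell and macrophage markers rose beside these genes, 6 of 7 tested features in each genotype. The exception was Clec4f, which did not pass, at 0.01 in wild type and 0.28 in transgenic mice.

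Itih4 and Itih3 are neighbours on chromosome 14, Itih4 from 30886476 to 30901986 and Itih3 from 30908572 to 30923787, with 6585 bases between them. Itih4, a plasma protein cleaved by kallikrein, held 499 and 341 FPKM in untreated wild type, 586 and 350 FPKM in untreated transgenic, 755 and 899 FPKM in LPS wild type and 648 and 1097 FPKM in LPS transgenic liver. All 4 LPS libraries were above all 4 untreated ones, a pattern seen in 20.6% of features. Neither genotype passed alone, at 1.00 (SE 0.35, adjusted p = 0.0835) and 0.90 (SE 0.35, adjusted p = 0.0989), and both together did, at 0.95 (SE 0.25, adjusted p = 0.0204). That call was lost without untreated wild-type replicate 2 (0.81), either LPS wild-type library (1.01 and 0.88) or untreated transgenic replicate 2 (0.76).

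Itih3, a heavy chain that is transferred to hyaluronan, held 407 and 501 FPKM in untreated wild type, 460 and 390 FPKM in untreated transgenic, 615 and 700 FPKM in LPS wild type and 498 and 662 FPKM in LPS transgenic liver. The LPS libraries were higher within each genotype, and LPS transgenic replicate 1 was just under the highest untreated library. The averaged change was 0.49 (SE 0.15, adjusted p = 0.0403), with 0.54 in wild type and 0.44 in transgenic mice, neither of which passed. The averaged call was lost in 8 of 18 alternatives, among them 6 that left out 1 library, with changes from 0.39 to 0.55; the 2 libraries that could be left out were untreated wild-type replicate 2 and LPS transgenic replicate 1. The ratio of Itih4 to Itih3 overlapped between treatments (0.681 to 1.27 untreated, 1.23 to 1.66 with LPS).

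Of 11 names in the list of the inter-alpha-trypsin family and its partners 7 were tested. Cd44 alone passed within each genotype on the deposited scale. Over all features 21.6% passed in wild type and 26.5% in transgenic mice. With quantile normalization or equal sums Itih3 and Itih4 passed within genotypes too. Itih1 and Itih2, the heavy chains of the classical inhibitor, did not pass, at -0.16 and -0.30 in wild type and -0.36 and -0.12 in transgenic liver. Ambp, which encodes the light chain bikunin, was at 0.20 and 0.30 and did not pass; averaged over genotypes it was at 0.25, and passed with quantile normalization (0.39) and equal sums (0.48). Cd44, a cell surface receptor for hyaluronan found on leukocytes, rose by 2.82 (SE 0.17, adjusted p = 0.000117) and 2.62 (SE 0.17, adjusted p = 0.000232).

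The pentraxins Apcs (chromosome 1, 172893961 to 172895054) and Crp (172698056 to 172699966) lie 193994 bases apart. Apcs, serum amyloid P component, held 58.6 and 80.1 FPKM in untreated wild type, 67.0 and 49.4 FPKM in untreated transgenic, 142 and 167 FPKM in LPS wild type and 69.5 and 287 FPKM in LPS transgenic liver. The wild-type groups did not overlap, and the LPS transgenic libraries differed 4.13-fold from each other, the lower one lying within the untreated range of wild type. Neither genotype passed alone, at 1.16 (SE 0.56, adjusted p = 0.186) and 1.28 (SE 0.56, adjusted p = 0.134), and the averaged change of 1.22 did (SE 0.40, adjusted p = 0.0468). The averaged call was lost in 9 of 18 alternatives, 6 of them fits without 1 library (any wild-type or untreated transgenic library), at changes of 1.11 to 1.33. Without LPS transgenic replicate 1 the transgenic change was 2.297 and passed.

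Crp, C-reactive protein, held 376 and 376 FPKM in untreated wild type, 293 and 292 FPKM in untreated transgenic, 204 and 195 FPKM in LPS wild type and 273 and 231 FPKM in LPS transgenic liver. The 4 groups did not overlap, in the order untreated wild type, untreated transgenic, LPS transgenic and LPS wild type. The share of all features with 4 such separate groups was not counted. Neither genotype comparison of Crp passed in limma (adjusted p = 0.921 untreated and 0.448 with LPS). The fall in wild type was -0.91 (SE 0.16, adjusted p = 0.00540), and it was not called without either LPS wild-type library (-0.94 and -0.88). In transgenic mice the estimate was -0.22 (SE 0.16, adjusted p = 0.345), and with quantile normalization it was 0.04. Averaged over genotypes Crp fell by 0.56 (SE 0.11, adjusted p = 0.00650), a call lost with quantile normalization (-0.30) and with each library scaled to an equal sum (-0.33). All 4 LPS libraries were below all 4 untreated ones, which held for 16.8% of features.

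Within each library the ratio of Apcs to Crp was 0.156 to 0.229 untreated and 0.255 to 1.24 with LPS, with no overlap, a pair that was chosen because its levels were seen to move apart. In 1 library, LPS transgenic replicate 2, Apcs exceeded Crp. The genes of opsonins and receptors that act with the pentraxins were on a list of 16 names with 10 tested features, Apcs and Crp included. Of these 6 rose and 3 fell in wild type, and 6 rose and 1 fell in transgenic mice. Over all features 16.2% rose and 5.41% fell in wild type, and 16% rose and 10.5% fell in transgenic mice. C1qa, C1qb and C1qc, the subunits of the complement starter that pentraxins bind, rose by 2.45, 2.79 and 2.86 in wild type and by 2.34, 2.64 and 2.58 in transgenic liver. Fcgr1, a receptor for IgG and pentraxins, rose by 2.45 and 2.13. The collectin genes Mbl1 and Mbl2 fell by 0.69 and 0.96 in wild type, where neither passed with quantile normalization.

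Cp, ceruloplasmin (chromosome 3, 19956933 to 20009750), held 317 and 488 FPKM in untreated wild type, 349 and 382 FPKM in untreated transgenic, 495 and 448 FPKM in LPS wild type and 497 and 566 FPKM in LPS transgenic liver. Untreated wild-type replicate 2 lay within the LPS range, and the transgenic groups did not overlap. No LPS comparison passed, at 0.26 in wild type (SE 0.23, adjusted p = 0.458), 0.54 in transgenic mice (SE 0.23, adjusted p = 0.127) and 0.40 averaged (SE 0.16, adjusted p = 0.0934). With each library scaled to an equal sum the transgenic change was 0.75 and passed, as did the averaged change at 0.63. The averaged change also passed with quantile normalization (0.64) and without untreated wild-type replicate 2 (0.55). Of 11 tested genes of copper supply, 1 rose and 1 fell in wild type, and 3 rose and 2 fell in transgenic mice. Over all features 16.2% rose and 5.41% fell in wild type, and 16% rose and 10.5% fell in transgenic mice. Slc31a2, a copper transporter, rose by 1.51 and 1.26. Ccs, the chaperone of copper for Sod1, fell by 0.63 and 0.61, a call lost under quantile normalization and equal sums. Atp7b, which loads copper onto ceruloplasmin, did not pass at 0.07 and -0.41.

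**Figure D4:**
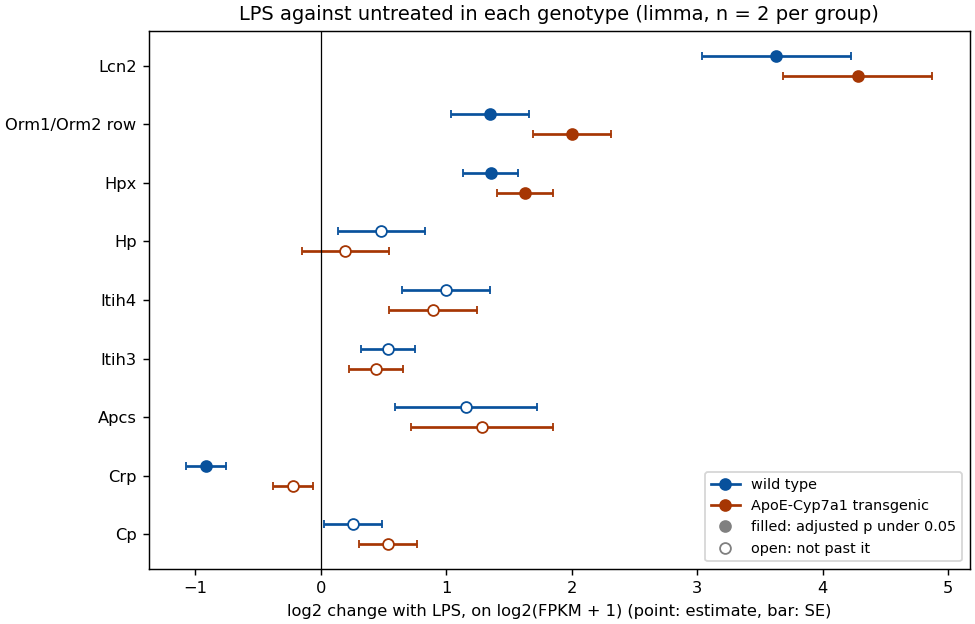
Log2 change with LPS on the log2(FPKM + 1) scale (horizontal axis) of the 9 rows (vertical axis) in wild-type and transgenic mice; points are limma estimates, bars their SE, and filled points have an adjusted p under 0.05. Lcn2 is at 3.63 and 4.28, the Orm row and Hpx are past the threshold in both genotypes, and Crp is past it in wild type, at -0.91.

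No row passed between genotypes. In untreated liver 0 of 9 rows passed in limma, 0 had an unadjusted p under 0.05, and 0.0611% of all features passed. The estimates, transgenic minus wild type, ran from -0.54 (Lcn2, 95% interval -1.92 to 0.85) to 0.13 (Itih4, -0.68 to 0.95). With LPS 0 of 9 rows and 0% of all features passed, 0 of the rows had an unadjusted p under 0.05, and the estimates ran from -0.41 (Hp, -1.22 to 0.40) to 0.33 (Crp, -0.04 to 0.70). Without LPS transgenic replicate 2, 425 features passed with LPS, and without LPS transgenic replicate 1, 21 did; 0 of the 9 rows were among them in either fit. In the untreated comparison 7 features passed, beside 44 without either LPS transgenic library and 2 without untreated wild-type replicate 1 or either LPS wild-type library, again with 0 of the 9 rows. Averaged over treatments 0 of 9 rows passed in limma, 0 had an unadjusted p under 0.05, and 0.14% of features passed. These were 16 features, beside 182 without LPS transgenic replicate 2, 41 without LPS transgenic replicate 1 and 0 to 7 without any other library, with 0 of the 9 rows in each fit. These intervals leave room for differences of 2-fold or more in several rows, so they do not show that the genotypes were alike.

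The interaction asks whether the LPS change differed between genotypes. It passed for 0 of 9 rows and 0.00872% of features in limma, and 1 row, Crp, had an unadjusted p under 0.05. Without LPS transgenic replicate 2 the interaction passed for 279 features, beside 1, and without either untreated transgenic library for 6, with 0 of the 9 rows in each fit. For Crp the fall with LPS was smaller in transgenic than in wild-type mice, -0.22 beside -0.91, an interaction of 0.69 (SE 0.22, unadjusted 95% interval 0.17 to 1.22, adjusted p = 0.426). In untreated mice Crp was lower in transgenic liver by 0.36 on the log2 scale (adjusted p = 0.921 in limma), and with LPS it was higher by 0.33 (adjusted p = 0.448). For Lcn2 and the Orm row the estimates were 0.65 (interval -1.31 to 2.61) and 0.65 (-0.37 to 1.67). Thus the fall of Crp that passed in wild type and not in transgenic mice was not shown to differ between them.

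The replicates of a group did not vary alike across the 9 rows. In the LPS transgenic group 8 of 9 rows were higher in replicate 2, Crp being the exception, with a median log2 difference of 0.76, beside 0.02 over all features, of which 53.0% were higher in replicate 2. The differences there reached 2.03 for Apcs and 1.21 for Lcn2. In the untreated transgenic group 1 of 9 rows, Cp, was higher in replicate 2, beside 41.5% of all features, and Lcn2 differed by -1.69. In each wild-type group 4 of 9 rows were higher in replicate 2, beside 42.4% of all features untreated and 47.5% with LPS. Adipose markers differed between replicates too, at 16.1 FPKM in LPS transgenic replicate 2 and 2.05 FPKM in replicate 1, and their part in these differences was not tested. Over all features the SD of these differences was 0.484 and 0.233 in wild type untreated and with LPS, and 0.314 and 0.467 in transgenic mice.

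As a share of all FPKM, the 9 rows held 1.30% to 1.61% in untreated and 2.98% to 3.94% in LPS libraries. Hp and Hpx together made up 66.7% to 75.9% of that share. The total was summed over all deposited rows, so names with identical values, such as Orm1, Orm2 and Orm3, each counted in it. Alb was listed at 0 in every library, which bears on these shares and on the ranks given above. The order of levels, which FPKM allows because it is scaled by length, put Lcn2 last of the 9 in all 4 untreated libraries. With LPS Lcn2 stood between the fourth and the seventh place, and Apcs or Crp was last.

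The pathway that drives these genes was described by lists drawn up with earlier results of these data known. The counts of the lists below stand beside these shares of all features. In wild type 16.2% rose and 5.41% fell, and in transgenic mice 16% rose and 10.5% fell. Averaged over genotypes 20.6% rose and 15.8% fell. In each of the lists below the interaction passed for 0 tested genes. Unequal changes of a listed gene in wild-type and transgenic mice were therefore not shown to differ between genotypes. Of 12 tested genes of the interleukin-6 and STAT3 arm, 1 rose and 1 fell in wild type, and 3 rose and 1 fell in transgenic mice. Stat3 was at 31.7 and 28.2 FPKM in wild type without and with LPS, and neither it nor its feedback inhibitor Socs3 passed (-0.15 and -0.20 in wild type, 0.04 and 0.45 in transgenic mice). Lifr, a receptor of the same cytokine family, fell by 1.22 and 0.87. Il6ra, the interleukin-6 receptor, rose by 0.81 in transgenic mice and was at -0.08 in wild type. With libraries scaled to an equal sum, 8 of the 12 passed as higher averaged over genotypes, beside 2 without that scaling.

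Of 17 tested genes of the interleukin-1, TNF and NF-kB arm, 4 rose and 2 fell in wild type, and 7 rose and 1 fell in transgenic mice. Il1b rose by 1.62 and 1.63, Il1a by 1.34 and 1.36, and the NF-kB subunit gene Relb by 1.46 and 0.76, the last of these not called with quantile normalization (0.50). The receptor chain Il1rap fell by 0.80 and 1.00, of which the first was not called under quantile normalization or equal sums. Il1r1, the signalling receptor of interleukin-1, fell by 1.06 in wild type and rose by 0.75 in transgenic liver. The interaction passed for 0 of these 17 genes, Il1r1 included.

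Among 14 tested transcription factors of hepatocyte acute phase genes, 3 fell in wild type, and 1 rose and 5 fell in transgenic mice. Cebpd, a C/EBP factor induced in inflammation, rose by 1.82 in transgenic mice and was at 0.39 in wild type, while Cebpb did not pass (0.24 and 0.73). Hnf4a, a hepatocyte master regulator, fell by 0.96 in wild type, and Cebpa fell by 1.46 in transgenic mice. Averaged over genotypes 7 of the 14 fell, a number that dropped to 4 with quantile normalization and to 1 with equal sums. The hepatocyte marker sum was lower with LPS in the same libraries. Of its 9 tested genes 1 fell in wild type, and 1 rose and 1 fell in transgenic mice.

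Other positive acute phase genes went both ways, as did all features. Of all features 16.2% rose and 5.41% fell in wild type, and 16% rose and 10.5% fell in transgenic mice. Of 31 tested features 4 rose and 4 fell in wild type, and 8 rose and 5 fell in transgenic mice, and the list median was 0.04 and 0.11. The serum amyloid gene Saa1, on this list, held 73.4 to 198 FPKM in untreated and 2308 to 5512 FPKM in LPS libraries. Saa2 held 19.1 to 88.3 FPKM untreated and 1830 to 5594 FPKM with LPS. Serpina3n, a protease inhibitor, rose by 1.37 in transgenic mice and was at 0.31 in wild type. The fibrinogen genes Fga and Fgb did not pass in either genotype, while Fgg fell by 0.69 in wild type, a call lost under quantile normalization and equal sums. Of 14 negative acute phase genes, whose proteins usually decline in inflammation, 2 fell in transgenic mice, Cyp2e1 by 1.04 and Serpina6 by 1.86, and 1 rose in each genotype. The gene that rose was Trf, transferrin, at 4265 ± 901 FPKM (SD, n = 2) in untreated and 8345 ± 463 FPKM in LPS wild-type liver, which rose by 0.98 (SE 0.24, adjusted p = 0.0262) and, in transgenic mice, by 0.90 (SE 0.24, adjusted p = 0.0327).

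**Figure D5:**
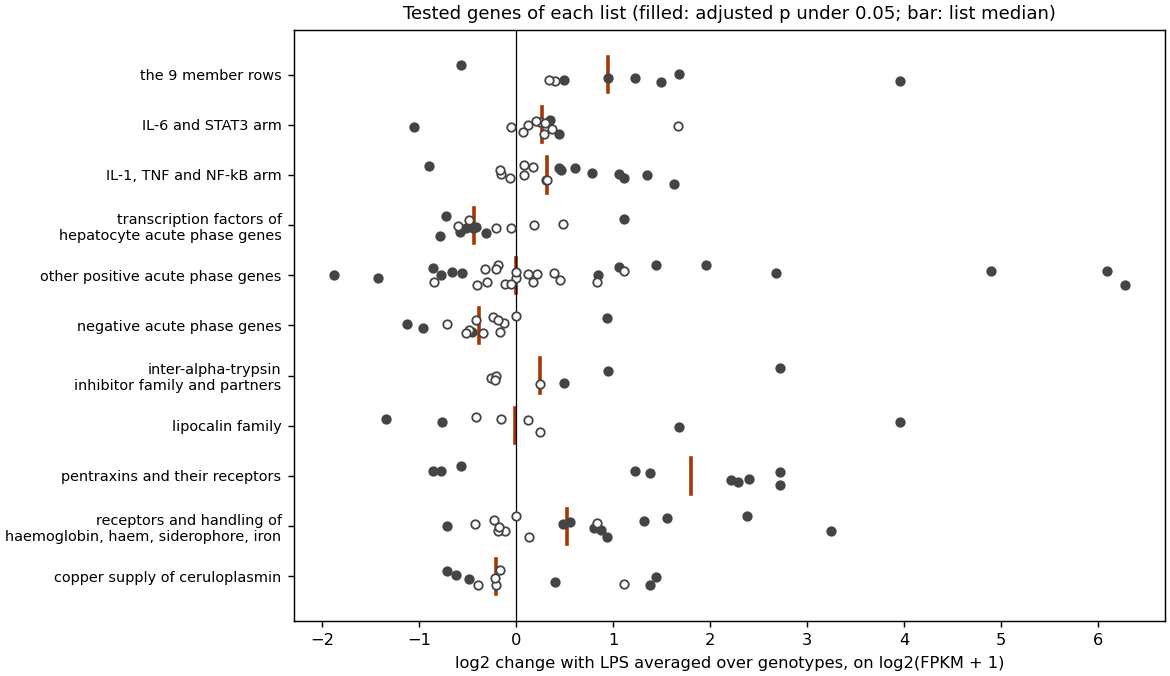
Log2 change with LPS averaged over genotypes, on the log2(FPKM + 1) scale (horizontal axis), of each tested gene of the 9 rows and of 10 gene lists (vertical axis); filled points have an adjusted p under 0.05 and bars are list medians. The bar of the 9 rows is at 0.95 and that of the other positive acute phase genes at 0.00. The rows and the lists were chosen with earlier results of these data known.

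The genes with the most similar pattern were sought among 6517 other features with a mean of at least 5 FPKM, by the root mean square difference of centred log2 values over the 8 libraries. Cd36, a fatty acid transporter, was closest to Hpx (0.0953) and next closest after Ddx26b to the Orm row. The closest to Lcn2 was Cd207 at 0.524, and the closest to Apcs was Serpina3n at 0.441, so both were less well matched. For Crp it was Osbpl1a (0.0733), for Cp Usp25 (0.0709), for Itih3 Gmnn (0.0972), for Hp Khk (0.168), for Itih4 Mmp14 (0.178) and for the Orm row Ddx26b (0.220). Among the 9 rows themselves Itih3 and Cp were most alike (0.208), then Hp and Itih3 (0.263) and the Orm row and Hpx (0.271). A small difference is easier to reach for a row that changed little.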

How the data were processed

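Whole liver RNA of 8 mice was sequenced after mRNA library preparation with a stranded kit, per the labels' protocols. The authors deposited a table of FPKM values with a gene name on each row; the submitters' processing notes name TopHat2 2.1.0, Bowtie2 2.2.6, Cufflinks, Cuffdiff 2.2.1 and the build mm10. The sources used here do not give the annotation, filters, scaling between libraries or fragment counts, so depth is unknown and no count test was run. The table's 8 columns were matched to samples by the labels' sample numbers. Of repeated names the row with the highest sum was kept, rows with identical values in all libraries were joined.

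Values were taken as log2(FPKM + 1). Features that reached 1 FPKM in 2 or more of the 8 libraries, 11463 in all, were fitted in limma 3.58.1 under R 4.3.3, with 1 mean per group, 4 residual degrees of freedom, trended empirical Bayes moderation (prior degrees of freedom 3.59 in the median), 7 contrasts, 2-sided tests and Benjamini-Hochberg adjustment over all features of a contrast. Whether the libraries differ by animal or also by preparation day is not stated, so p-values measure the spread between these libraries. The script was tested on simulated data. Alternatives were another pseudocount (0.1), filters, scalings and moderation, only the groups compared, a replicate block, each library left out, and both untreated libraries numbered 1 left out. Ratios of 2 members are given without a test.

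The members and the gene lists were chosen with earlier results of these data known. By rule the named genes were all members, up to 4 genes per list and comparison that passed, by size of change, defining genes of the acute phase pathway, and the 3 features most like each member, of which the closest are given. Il1rap, Slc22a17, Lrp1, Clec4f, Serpina3n, Fga, Fgb, Fgg, Mbl1, Mbl2, Itih1, Itih2, Ambp and Atp7b lie outside it and were chosen after their values were seen. Promoter sequences and positions are from RefSeq, GRCm38.p6. Of the marker names Adgre1 and Jchain had no row and were covered by Emr1 and Igj.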

Additional observations from a re-analysis of the deposited data

How the results depend on the processing

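The 0 of 9 rows called between genotypes and for the interaction stayed at 0 in every alternative run. In wild type LPS called 7 rows with quantile normalization, beside 4, and 1 to 5 without 1 library. In transgenic mice it called 5 rows with quantile normalization and 6 with libraries scaled to an equal sum, beside 3, and 3 to 4 without 1 library. Averaged over genotypes it called 4 to 7 without 1 library, beside 7 (6 higher, 1 lower); the calls were 8 higher and 0 lower with quantile normalization, and 7 higher and 0 lower with equal sums. Signs turned in a few results that had not passed. For the LPS change these were Cp in wild type (-0.052 to 0.57 without 1 library, lowest without untreated wild-type replicate 1, and -0.052 without both untreated libraries numbered 1), Crp in transgenic mice (0.038 with quantile normalization) and Hp in transgenic mice (-0.24 to 0.63 without 1 library, below 0 without untreated replicate 2 or LPS replicate 2). For the genotype difference they were Lcn2 untreated (-1.38 to 0.31 without 1 library, above 0 without transgenic replicate 2), Lcn2 with LPS (-0.49 to 0.72, below 0 without replicate 2 of either genotype) and Orm1 with LPS (-0.17 to 0.68, below 0 without transgenic replicate 2). The interaction of Lcn2 ranged from -0.20, without untreated transgenic replicate 2, to 1.49. The cause of these shifts was not tested.

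Scaling libraries to an equal sum moved the median change of all features by 0.21 in wild type and 0.18 in transgenic mice. Of all features called in wild type 75.0% were higher, beside 59.5% with quantile normalization and 95.04% with equal sums. In transgenic mice these shares were 60.4%, 53.8% and 78.4%, and averaged over genotypes 56.6%, 44.8% and 82.6%. With a filter of 5 FPKM 1379 features passed in wild type and 1835 in transgenic mice, beside 2481 and 3034, among fewer features tested. Same-numbered libraries share only a number in the labels. Their deviations correlated across features at 0.46 between the untreated groups and at 0.04 to 0.19 between the other pairs of groups. With a replicate block the 9 rows gave the same counts of calls, 4 in wild type, 3 in transgenic mice, 7 averaged and 0 in the rest; over all features 2769, 3314 and 4538 passed for LPS and 1, beside 16, for the genotype averaged over treatments. With the block the interaction passed for 2 features, beside 1. Fits of only the groups compared were not run for averaged contrasts and the interaction, which need all 4 groups. With 2 libraries a group and no fragment counts, many calls depended on scaling or on single libraries. Among them were small changes, such as those of Hp, Cp and Itih3, and larger ones. The averaged calls of Apcs, Itih4 and Crp were each lost in at least 1 alternative. So were the wild-type calls of the Orm row, Crp and Hpx. Both Lcn2 calls and the transgenic call of the Orm row held in every alternative.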
